A study of Mus musculus with 3 samples.

Results

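The olfactory area (OLF) of the mouse brain, as labelled by the authors on Visium sections, is described here through its capture spots. The members were the spots whose region label was OLF in the deposited table, joined by barcode to the position of each spot on the slide. There were 575 OLF spots among 8549 spots (6.73%), of which 179 lay in the control section (CON, 6.21% of that section), 180 in the resilient section (RES, 6.36%) and 216 in the susceptible section (SUS, 7.61%). Each condition was 1 coronal section of 10 μm from the left hemisphere of 1 male C57BL/6J mouse aged 8 weeks. The mice of the RES and SUS sections were each exposed for 10 days to chronic social defeat stress (CSDS) by a CD-1 aggressor and were told apart by a social interaction ratio above or below 1, while the CON mouse was housed over the same period with non-aggressive C57BL/6 mice. Tissue was taken 1.5 h after the last exposure. With 1 section per condition, a difference between sections has no replicate check, and the mouse, the section, the slide area and the condition cannot be told apart. The intervals given are 95% intervals over the spots of a section. They cover the spread of the spots within that section only, since spots are not replicates of a condition.

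In this plane of section the olfactory area is the band of brain below and lateral to the amygdala that receives input from the olfactory bulb, and its main component is the piriform cortex. The piriform cortex is a simple form of cortex with 3 layers. Its outermost layer under the pial surface is poor in cell bodies and holds the olfactory tract and the dendrites it contacts, the next layer is a thin, densely packed sheet of principal neurons, and the deepest layer holds scattered neurons. The adjoining cortical subplate (CTXsp) contains the endopiriform nucleus and nuclei of the amygdala. A Visium spot covers several cells or parts of cells. Each unique molecular identifier (UMI) stands for 1 captured transcript. The files used here give per spot the number of UMIs, the number of genes with a UMI, and the percentages of UMIs from genes of the mitochondrial genome, of ribosomal proteins and of red blood cells. They hold no count of any single gene, so the OLF label was checked by position and not by marker genes.

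The position of the spots fitted a band at the ventrolateral surface in all 3 sections. Of the places adjacent to an OLF spot, 86.8% (CON), 87.0% (RES) and 85.8% (SUS) held another OLF spot. Among adjacent spots of other regions, CTXsp made up 71.0%, 65.3% and 69.1%, the cerebral nuclei (CNU) 18.8%, 16.7% and 13.8%, and the lateral entorhinal area (ENTl) 10.1%, 18.1% and 17.0%, in the order CON, RES and SUS. The share of OLF spots with at least 1 adjacent place outside the tissue was alike, at 19.6% (35 spots), 18.3% (33 spots) and 19.0% (41 spots). The tissue ran off the capture grid in CON and RES but not in SUS at this band: 51, 23 and 0 OLF spots lay as near to the end of the grid as to bare slide, or nearer, and these were left out wherever distance from the surface was used. All of them lay in the end of the band next to ENTl, where 8 of 59 CON spots, 37 of 60 RES spots and 72 of 72 SUS spots stayed in. That left 128, 157 and 216 OLF spots with a known distance, counted in grid steps from the nearest slide place without tissue. A barcode marks a place on the slide, and 29 places carried an OLF spot in all 3 sections.

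UMIs per OLF spot differed between the sections by more than the spread of their medians, with CON highest and RES lowest. CON spots ranged from 3478 to 34367 UMIs with a median of 15669 (14547 to 17100), RES spots from 211 to 22735 with a median of 5542 (5319 to 5955), and SUS spots from 2198 to 40942 with a median of 8906 (8329 to 9895). The ranges of the single spots overlapped in all pairs of sections. At least 20000 UMIs were found in 50 CON spots (27.9%, exact interval 21.5 to 35.1%), in 1 RES spot (0.556%, 0.0141 to 3.06%) and in 32 SUS spots (14.8%, 10.4 to 20.3%). The richest OLF spot had rank 2 among all spots of the CON section and rank 4 in SUS, but rank 120 in RES. OLF spots gave 7.84% of all UMIs of the CON section and 7.10% in SUS, and 3.63% in RES. The cause of these differences was not tested. Fewer cells and less RNA per cell under the spots cannot be told apart in such data. Neither can be told apart from a difference in capture or sequencing between the sections.

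**Figure D1:**
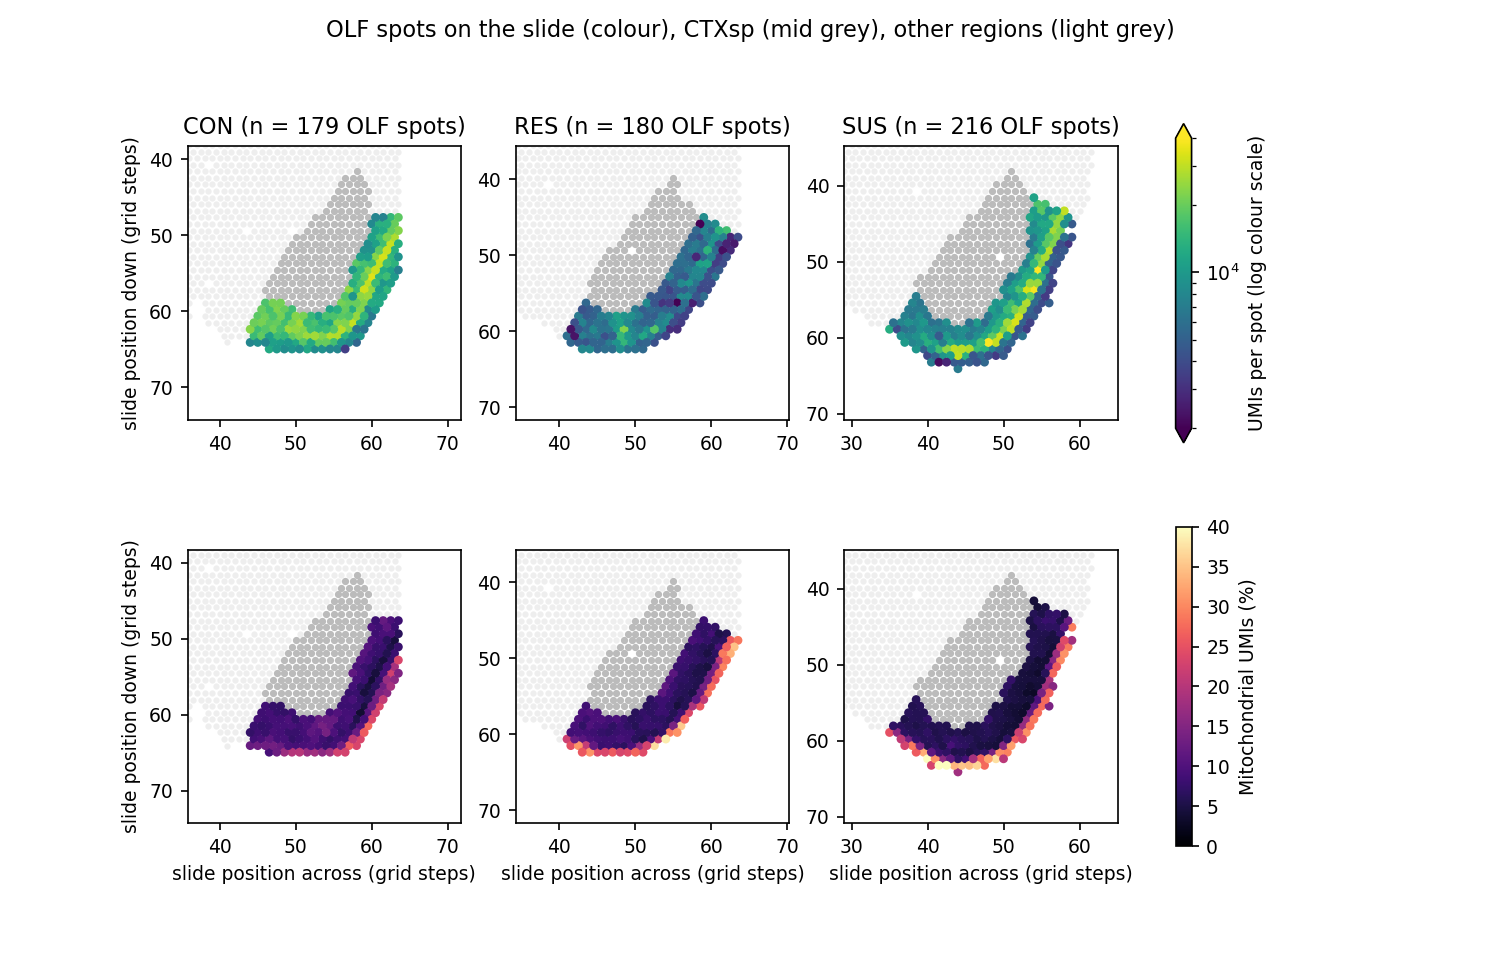
OLF spots at their slide positions in the CON, RES and SUS sections (both axes in grid steps), coloured by UMIs per spot on a log scale (top) and by the percentage of mitochondrial UMIs (bottom), with CTXsp in mid grey and other regions in light grey. Values beyond the UMI colour scale take its end colour. A bright line runs parallel to the surface in CON and SUS, where the highest OLF spots held 34367 and 40942 UMIs, and the outermost row has the highest mitochondrial percentages in each section.

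Across the depth of the band, UMIs had a peak at the third step from the surface that was tall in SUS, lower in CON and slight in RES. In CON the median was 8588 UMIs at step 1 (25 spots), 12112 at step 2 (24 spots), 22483 at step 3 (22 spots) and 19862 at step 4 (20 spots), with 17166 at step 5 (18 spots) and 17114 further in (19 spots). In SUS it was 4389 at step 1 (41 spots), 6319 at step 2 (39 spots), 24929 at step 3 (37 spots), 12020 at step 4 (35 spots) and 9212 at step 5 (33 spots). In RES the 6 medians lay between 4629 at step 1 (31 spots) and 6570 at step 3 (27 spots). The ratio of step 3 to step 1 was 5.68 in SUS (4.49 to 6.77), 2.62 in CON (1.90 to 3.22) and 1.42 in RES (0.928 to 1.997). Against the spots 5 or more steps in, step 3 was 2.83 times higher in SUS (2.21 to 3.54), while the ratios in CON (1.31, 0.970 to 1.59) and RES (1.20, 0.886 to 1.56) had intervals that included 1. Of the 20 OLF spots of known distance with the most UMIs in each section, 9 in CON, 4 in RES and 17 in SUS lay at step 3. Among all OLF spots of known distance, step 3 held 22 of 128 in CON, 27 of 157 in RES and 37 of 216 in SUS. The 4 of 20 in RES were thus near the share of step 3 among all its spots, and 5 of those 20 lay at step 2.

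Pooled over the band, the third step was the 1 depth at which the SUS median was not below that of CON. There the SUS to CON ratio of median UMIs was 1.11 (0.846 to 1.44), while it was 0.511 at step 1, 0.522 at step 2, 0.605 at step 4, 0.537 at step 5 and 0.511 further in, with every one of those intervals under 1. The RES to CON ratio was lowest at step 3, at 0.292 (0.210 to 0.413), and highest at step 1, at 0.539 (0.392 to 0.726). Genes per spot had the same shape: at step 3 the medians were 6637 genes in SUS, 6302 in CON and 3228 in RES, against 2489, 3830 and 2432 at step 1. On the part of the band toward the hypothalamus (HY) alone, the SUS to CON ratio at step 3 was 0.593 (0.338 to 1.76), and in its middle part 1.099 (0.634 to 1.42). Step 3 was singled out after its values were seen.

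**Figure D2:**
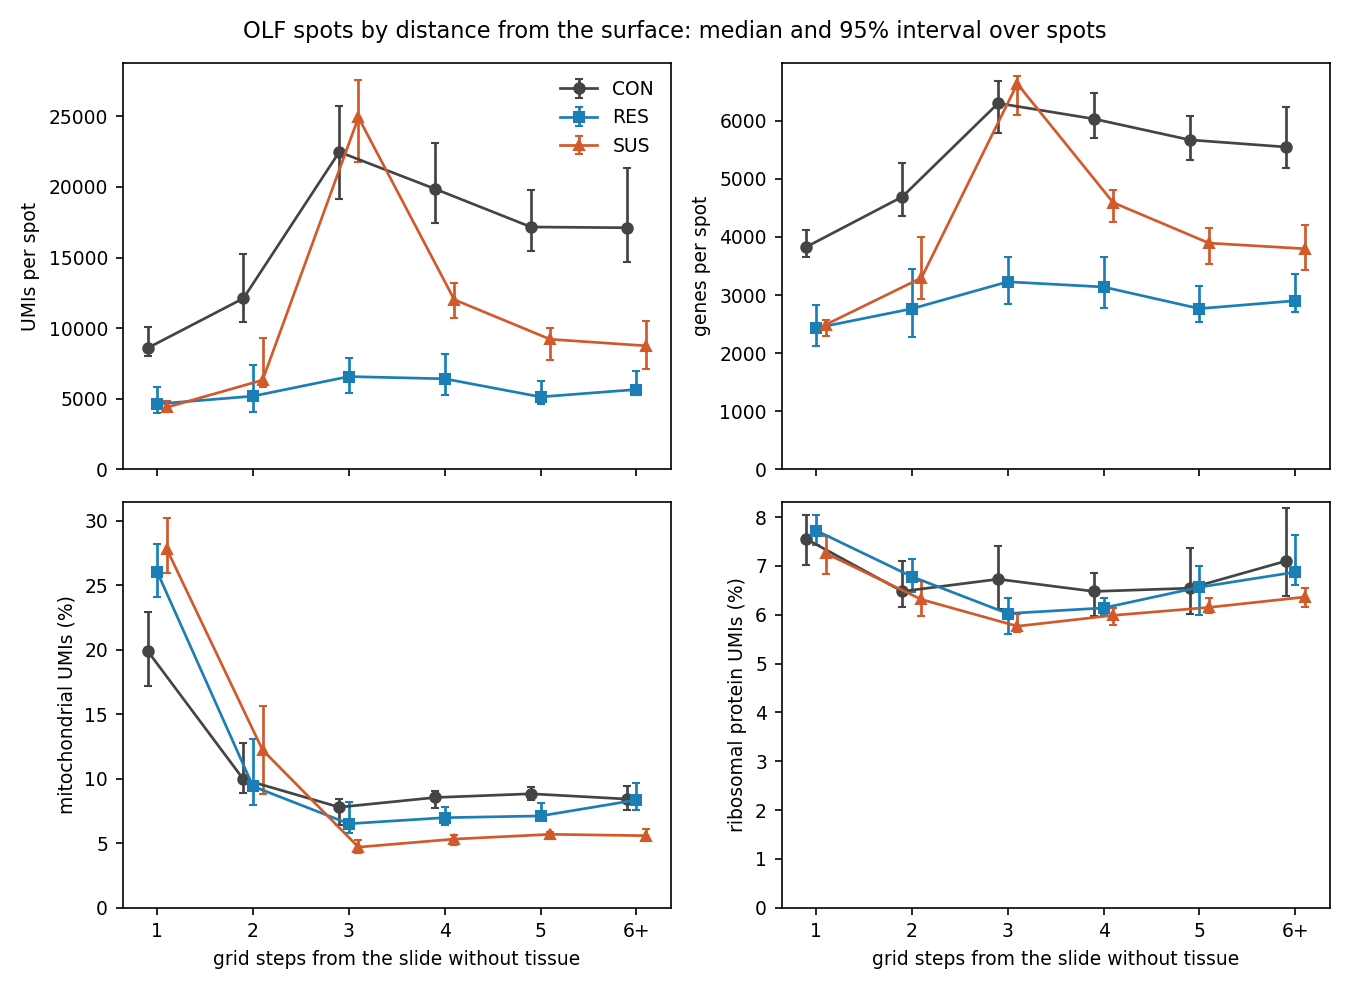
Medians over OLF spots with 95% intervals (vertical axes: UMIs, genes, % mitochondrial and % ribosomal protein UMIs) against grid steps from the slide without tissue (horizontal axis, 6+ for step 6 and further), for CON, RES and SUS. Pooled over the band, SUS and CON meet in UMIs and genes at step 3, at 24929 and 22483 UMIs, and lie apart at the other steps. The 2 percentages do not follow that course, and at step 3 SUS lies below CON in both.

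The isocortex, which also reaches the pial surface, was taken as a comparison after these values were seen. Its step 3 to step 1 ratio of UMIs was 2.60 in SUS, 2.36 in RES and 1.65 in CON, so its outermost spots were also poor. Its step 3 was 0.798, 1.04 and 1.04 times the spots 5 or more steps in, in the same order. Outer rows below those of CON were also found in isocortex. There SUS had 0.501 times the UMIs of CON at step 1 (0.388 to 0.607) and 0.469 times at step 2 (0.372 to 0.646), close to the ratios in OLF. RES had 0.649 (0.504 to 0.791) and 0.767 (0.670 to 0.876) there, compared with 0.539 and 0.428 in OLF. From step 3 inward the RES ratios lay between 0.924 and 0.955 in isocortex and between 0.292 and 0.330 in OLF, so the course of RES over depth was not shared. At step 3 the isocortex of SUS was 0.790 (0.632 to 0.910) and that of RES 0.928 times CON (0.813 to 1.07), compared with 1.11 and 0.292 in OLF.

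Mitochondrial UMIs took their largest share in the outermost row of the band. At step 1 their median share was 27.8% in SUS, 26.0% in RES and 19.9% in CON, and at step 3 it was 4.70%, 6.52% and 7.80%. The difference of step 3 from step 1 was -23.1 percentage points in SUS (-25.9 to -20.7), -19.5 in RES (-22.4 to -15.9) and -12.1 in CON (-16.5 to -8.78). In isocortex it was -9.63, -9.36 and -5.34. More than 20% mitochondrial UMIs were found in 15 CON, 37 RES and 41 SUS spots of OLF. Of these, 13, 33 and 41 had a known distance and all lay at step 1 or 2, with 12, 30 and 35 at step 1. Over all OLF spots the median share was 8.89% in CON, 8.14% in RES and 6.13% in SUS. That order was not kept across depths: at step 1 SUS exceeded CON by 7.89 points (3.03 to 13.0) and RES exceeded CON by 6.13 (1.14 to 11.0), whereas at step 3 SUS was below CON (-3.09, -4.18 to -1.14) and the RES difference (-1.28, -2.60 to 1.78) included 0. With means in place of medians, both differences over all OLF spots changed sign, to 1.35 points in RES and 0.554 in SUS. The lower median in SUS was shared with the rest of that section: relative to the median of all spots of each section, the SUS difference was -0.319 points in place of -2.76.

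The 3 percentages could be traced back to whole UMI numbers. The deposited number of UMIs gave whole numbers for all 3 percentages in 0 of the 575 OLF spots. When totals from 0.5 to 2.5 times the deposited number were searched, 93 spots had exactly 1 whole total, and in all 93 it exceeded the deposited number by at least the mitochondrial and red blood cell UMIs. That excess was then set as a condition for the other spots, and under it 573 spots had exactly 1 whole total, here called the recovered total. The deposited number was lower than the recovered total by a median of 9.75% of that total in CON, 11.0% in RES and 8.48% in SUS. With the recovered total, RES had 0.371 (0.322 to 0.433) and SUS 0.581 (0.491 to 0.683) of the CON median. At step 1 the recovered number of mitochondrial UMIs was 0.799 times CON in RES (0.632 to 1.19) and 0.927 times in SUS (0.644 to 1.25), while the deposited UMIs there were 0.539 and 0.511 times CON. The outermost row of RES and SUS thus had fewer UMIs from other genes than that of CON, and a difference in mitochondrial UMIs was not detectable there. Fewer UMIs at step 1 were not particular to OLF, as the isocortex ratios show. The mitochondrial UMIs at step 1 of isocortex, however, were also below CON, at 0.686 times in RES (0.579 to 0.804) and 0.470 times in SUS (0.381 to 0.548).

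Along the surface, the band was split in each section into 3 parts of equal numbers of spots, from the ENTl side to the HY side. In SUS the tall step 3 belonged to the ENTl side, with a median of 25257 UMIs (13 spots, 95% interval 22772 to 30379), and to the middle, with 27450 (12 spots, 18611 to 31793). On the HY side of SUS the step 3 median was 11747 (12 spots, 8698 to 27602). In CON it was 24979 in the middle (10 spots, 22446 to 29353) and 19814 on the HY side (10 spots, 15699 to 25733), and only 2 step 3 spots of known distance lay on the ENTl side. RES medians at step 3 lay between 6048 and 7718 in the 3 parts. The SUS to CON ratio over all depths was 0.734 on the ENTl side (0.582 to 0.961), 0.627 in the middle (0.377 to 0.879) and 0.465 on the HY side (0.362 to 0.572), and the RES to CON ratio was 0.392, 0.319 and 0.372. Within sections, the HY side had 1.20 times the UMIs of the ENTl side in CON and 1.14 times in RES, both with intervals that included 1, and 0.763 times in SUS (0.588 to 0.949). The median mitochondrial, ribosomal protein and red blood cell percentages were higher on the HY side in 3 of 3 sections, although the interval over all depths excluded 0 only for ribosomal protein in CON (1.02 points, 0.538 to 1.55). At steps 3 and more the mitochondrial difference was 1.89 points in RES (0.696 to 3.13) and 0.904 in SUS (0.355 to 1.59), while CON had only 3 such spots on the ENTl side. Over all depths, each of these 3 percentages had p = 0.25 by the exact two-sided sign-flip permutation test over sections (adjusted over 5 measures, 0.417). The smallest p that 3 sections allow is 0.25. UMIs and genes did not reach it, since they were higher on the HY side in 2 of 3 sections only.

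**Figure D3:**
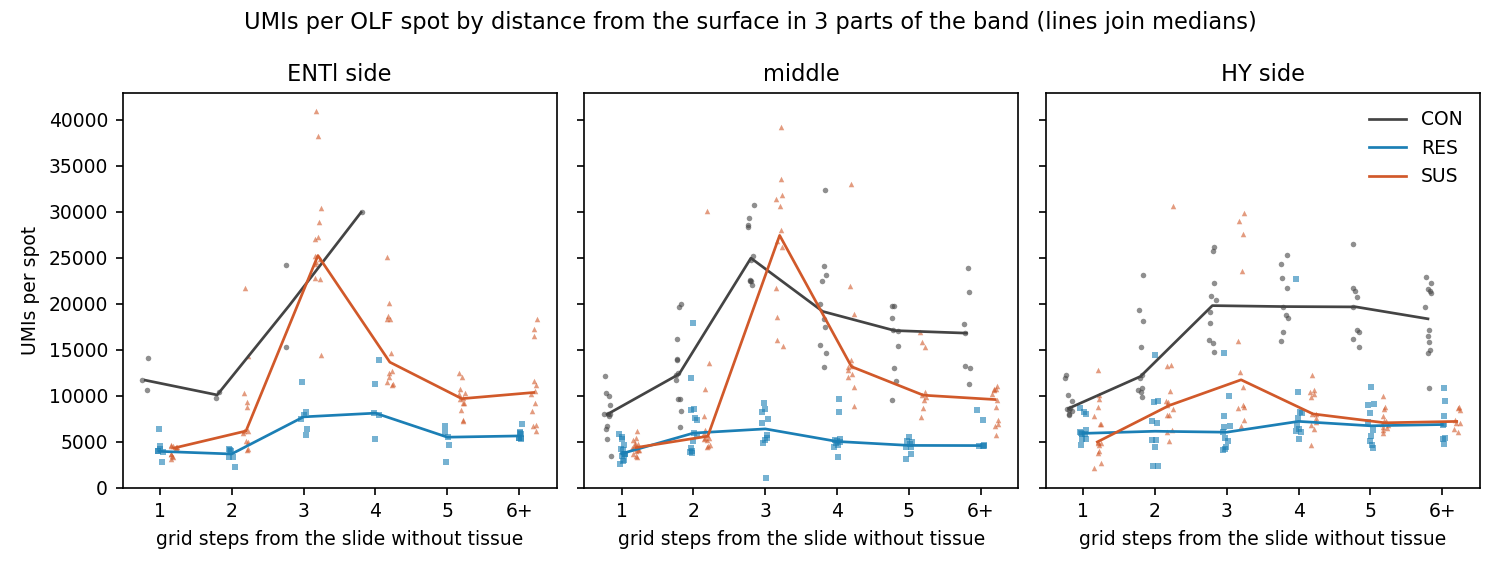
UMIs per OLF spot (vertical axis) against grid steps from the slide without tissue (horizontal axis) in 3 parts of the band, with 1 point per spot and lines that join the medians of CON, RES and SUS. The step 3 peak of SUS stands on the ENTl side and in the middle (medians 25257 and 27450) and is low on the HY side (11747), and RES stays low in each part.

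Taken over the sections, the outer OLF spots at steps 1 and 2 were poorer than the inner spots. Their median UMIs were 0.523 times the inner median in CON (0.440 to 0.662), 0.826 times in RES (0.613 to 1.07) and 0.487 times in SUS (0.390 to 0.611), a geometric mean of 0.595 (lower in 3 of 3 sections, exact sign-flip permutation test, p = 0.25, adjusted over 5 measures 0.25). Their mitochondrial share was higher by 4.81, 13.8 and 15.3 points, a mean of 11.3 ± 5.66 (SD, n = 3 sections), with the same exact permutation p of 0.25. The mean was 17.2 points with step 1 alone as the outer spots and 4.52 with steps 1 to 3. Ribosomal protein shares were higher in the outer spots too, by 0.398 (-0.410 to 0.861), 0.891 (0.293 to 1.50) and 0.694 points (0.335 to 1.103), with 0 inside the interval of CON. The smallest p was reached in each case, and the design cannot pass a threshold of 0.05.

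Against the adjoining CTXsp spots, OLF was richer in CON and SUS and poorer in RES. The CTXsp medians were 12930 UMIs in CON (169 spots), 8159 in RES (155 spots) and 7471 in SUS (199 spots). OLF had 1.21 times as many UMIs in CON (1.06 to 1.42), 0.679 times as many in RES (0.616 to 0.757) and 1.19 times as many in SUS (1.01 to 1.37). The geometric mean over the sections was 0.994 with an SD of 0.48 on the log2 scale (higher in 2 of 3 sections, exact sign-flip permutation test, p = 1), and without RES it was 1.20. Within 2 steps of their common border the ratios were 1.15, 0.688 and 1.21 (54, 51 and 69 OLF spots), with intervals that included 1 in CON (0.867 to 1.50) and SUS (0.932 to 1.47) but not in RES (0.608 to 0.858). In units of the CTXsp median of the same section, OLF in SUS was 0.984 times CON and OLF in RES 0.561 times CON, against 0.568 and 0.354 in UMIs as deposited. Genes per spot gave 1.11, 0.787 and 1.11. The median mitochondrial share was higher in OLF than in CTXsp by 0.626 (0.137 to 1.16), 0.177 (-0.396 to 1.08) and 0.306 points (-0.173 to 1.03), with 0 inside the intervals of RES and SUS, a mean of 0.370 ± 0.231 (SD, n = 3 sections, exact sign-flip permutation test, p = 0.25, adjusted over 5 measures 0.625). This mean was 3.94 points with means over spots and -0.104 near the border. With OLF spots at steps 3 and more, SUS differed by -0.418 points (-0.864 to 0.00533), RES by -0.516 (-1.27 to 0.374) and CON by 0.134 (-0.422 to 0.787), a mean of -0.267. The sign thus turned in RES and SUS, with 0 inside each interval. This choice leaves out the outer rows and also the spots of unknown distance, 51 in CON and 23 in RES. The UMI ratios of these inner spots to CTXsp were 1.43 in SUS, 1.52 in CON and 0.726 in RES.

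**Figure D4:**
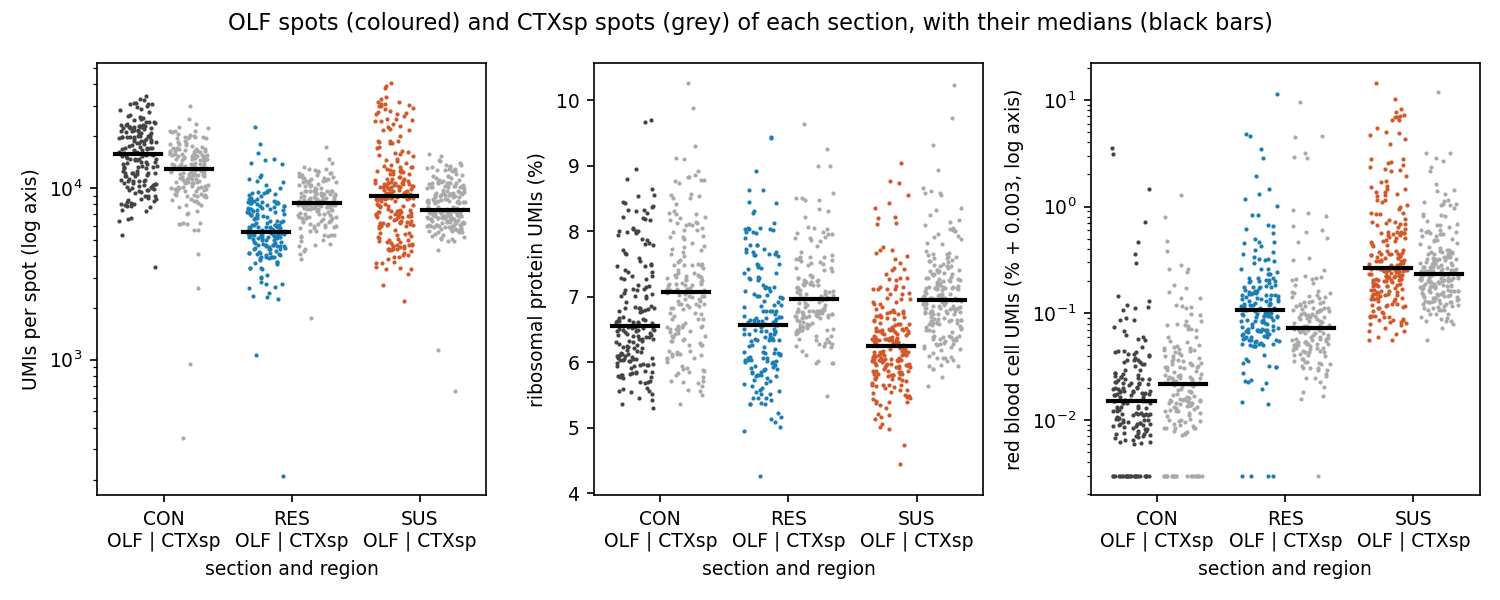
Single OLF spots (coloured) and CTXsp spots (grey) of the CON, RES and SUS sections with their medians (black bars), for UMIs per spot (log axis), % ribosomal protein UMIs and % red blood cell UMIs (0.003 added, log axis). The OLF bar lies above the CTXsp bar in CON (15669 against 12930 UMIs) and SUS (8906 against 7471) and below it in RES (5542 against 8159), and ribosomal protein percentages are lower in OLF in each section.

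Ribosomal protein genes, which encode the proteins of the ribosome, took a smaller share in OLF than in CTXsp in 3 of 3 sections. The OLF medians were 6.25% in SUS, 6.55% in CON and 6.56% in RES. In the order CON, RES and SUS, the differences from CTXsp were -0.523 points (-0.783 to -0.199), -0.403 (-0.694 to -0.120) and -0.700 (-0.891 to -0.513). Their mean was -0.542 ± 0.149 (SD, n = 3 sections, exact sign-flip permutation test, p = 0.25, adjusted over 5 measures 0.625). Near the border the differences were -0.384 (-0.945 to 0.329), -0.156 (-0.540 to 0.188) and -0.655 (-0.905 to -0.298), so the intervals in CON and RES included 0 there. Between sections, OLF in RES differed from CON by 0.00813 points (-0.297 to 0.240) and OLF in SUS by -0.304 (-0.538 to -0.0844). The share was highest at step 1, at 7.55%, 7.72% and 7.26%, and in RES and SUS lowest at step 3, at 6.02% and 5.76%. In CON the HY side stood apart, with 7.34% against 6.33% on the ENTl side.

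UMIs of red blood cell genes (haemoglobins are the main transcripts of these cells) were rare in CON and more frequent in RES and SUS. The OLF medians were 0.0121% in CON, 0.103% in RES and 0.261% in SUS, or 2, 7 and 29 recovered UMIs per spot. No such UMI was seen in 25 CON spots (14.0%, exact interval 9.25 to 19.9%), in 4 RES spots (2.22%, 0.609 to 5.59%) and in 0 of 216 SUS spots, which allows a share of up to 1.39% by the limit of 3 spots and 1.69% by the exact interval. At least 1% of such UMIs was seen in 3, 10 and 41 spots. The CTXsp medians were 0.0185%, 0.0701% and 0.229%. In SUS the OLF median was below that of its section: relative to the median of all spots of each section, the difference from CON was 0.0351 points in RES and -0.0177 in SUS. Spearman's rho of this share with UMIs per spot was -0.321 in CON, -0.119 in RES and -0.481 in SUS. The median share of SUS was lowest at step 3, with 0.113%. It was higher on both sides, with 0.568% at step 1, 0.222% at step 4, 0.349% at step 5 and 0.570% further in. The recovered red blood cell UMIs of SUS were nearly even over steps 2 to 5, with medians of 28, 26, 28 and 30 per spot. The median recovered total was 26542 at step 3, against 8600 at step 2 and 13101 at step 4. The part of red blood cells in the other measures was not tested.

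Genes per spot followed UMIs. Over the 575 OLF spots, the fit of log genes on log UMIs put RES at 0.985 and SUS at 0.994 times the genes of CON at equal UMIs, and single spots scattered around the fit by 5.48%. Between 7500 and 10000 UMIs, the median was 3863 genes in CON (26 spots, 3700 to 3992), 3722 in RES (34 spots, 3647 to 3746) and 3876 in SUS (39 spots, 3797 to 3956). The interval of RES overlapped that of CON and lay below that of SUS, and the RES spots of that bin had a median of 8331 UMIs against 8666 in CON and 8758 in SUS. Between 5000 and 7500 UMIs, RES had 2923 genes (70 spots, 2875 to 3030) and SUS 3175 (46 spots, 3117 to 3304), and the RES spots again had fewer UMIs, with a median of 5863 against 6423. Only 6 CON spots fell in it, with a median of 3245 genes (2771 to 3475). Without that matching, the RES median was 0.539 and the SUS median 0.728 times CON. OLF had 0.991, 1.01 and 0.979 times the genes of CTXsp at equal UMIs in CON, RES and SUS. Outer OLF spots had 1.004, 0.969 and 0.964 times the genes of inner ones.

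**Figure D5:**
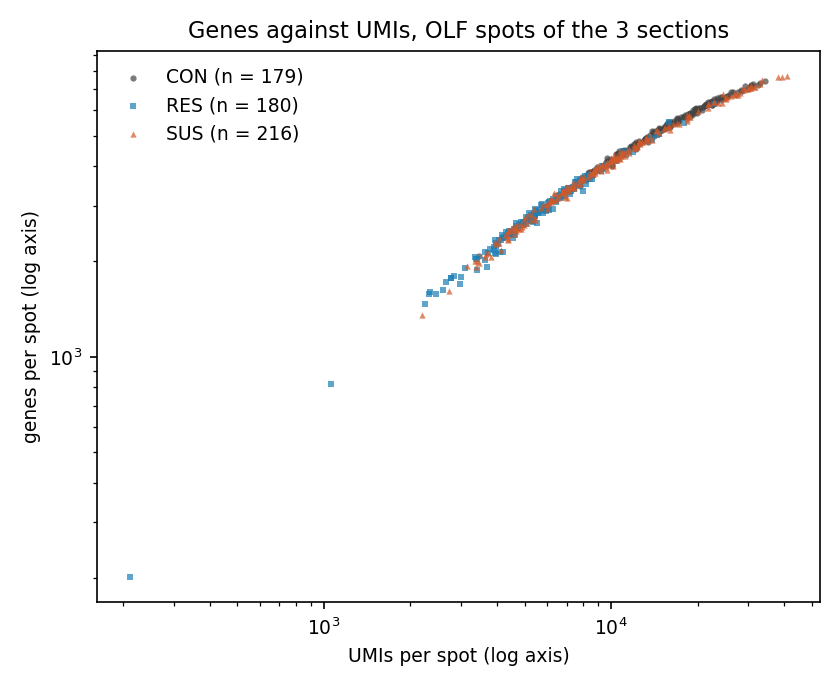
Genes per spot against UMIs per spot (both log axes) for the 575 OLF spots of CON, RES and SUS, 1 point per spot. The sections share 1 curve and occupy different stretches of it, with medians of 15669, 5542 and 8906 UMIs.

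Neighbouring OLF spots were alike in most measures. Spearman's rho between a spot and the mean of its OLF neighbours was 0.756 in CON (179 spots), 0.589 in RES (180 spots) and 0.756 in SUS (216 spots) for UMIs, and 0.818, 0.782 and 0.795 for the mitochondrial share. For the red blood cell share it was 0.369, 0.357 and 0.407. The mitochondrial share was lower in spots with more UMIs, with rho of -0.777, -0.523 and -0.766, and at steps 3 and more, without the outer rows, of -0.610, -0.260 and -0.591. These are descriptions across spots that share a library and a slide area, and the total of UMIs enters both measures.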

How the data were processed

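Visium libraries of 3 sections were made by the authors. The submitters' processing notes name bcl2fastq, cutadapt and Space Ranger 1.0.0 with the mm10 build. The deposited table gives whole UMI counts and gene counts per spot, not normalised; the counts are lower than the totals behind the percentages. It also gives the percent of UMIs from 3 gene groups, computed by the authors; the sources used here do not give the genes behind each percent. Scale factor files were not used. OLF was the authors' label. The members and comparisons were chosen with earlier results of these data known; regions were named if they held at least 5% of the adjacent spots of other regions. Whole totals were searched with a tolerance of 1e-06 UMIs, allowing up to 10% of the total to be missing beyond mitochondrial and red blood cell UMIs. Median intervals were order-statistic 95% intervals, ratio intervals divided opposite bounds and share intervals were exact Clopper-Pearson; all cover counting error and the spread of spots only. Within-section contrasts were tested over the 3 sections by exact sign-flip permutation with Benjamini-Hochberg adjustment over 5 measures. No spot was filtered. Deposited total counts per section ran from 31196847 to 37536349 UMIs. Functions were tested on simulated data. The work was done in Python 3.11.15 with scipy 1.17.1, numpy 2.4.6, matplotlib 3.10.9 and pandas 2.3.3.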

Additional observations from a re-analysis of the deposited data

Results flagged for a closer look

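The ratio of OLF to CTXsp went in opposite directions in different sections. For UMIs it was 1.21 in CON and 1.19 in SUS but 0.679 in RES, and for genes it was 1.11 in CON but 0.787 in RES. The difference between the sections was not tested, since each is 1 section. The SUS to CON difference of the mitochondrial percentage in OLF went in opposite directions at 2 depths, 7.89 points at step 1 from the surface and -3.09 points at step 3. That difference was not tested either.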

How the results depend on the processing

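No paired analysis was possible because each condition has 1 section, so no replicate number pairs sections of different conditions (contrasts within a section are paired by section). Of 185 recomputed values, 21 left the interval of the reported value and 17 changed direction. The other 147 stayed within it or, for contrasts paired by section, kept their direction. These include the 6 for genes at equal UMIs, which were held against the 5.48% scatter of single spots, a wide range that is no interval of the ratio, and say little about stability. Besides the 17, 8 values lay on the other side of no difference without being counted as changed, 6 of them for the ribosomal protein difference in RES, whose interval includes 0, 1 for genes at equal UMIs in SUS and 1 for step 3 in SUS. Where a value moved, the cause was not tested, except that scaling by a region or section median, or choosing spots by their UMIs, changes the quantity itself.

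For UMIs, the RES to CON ratio was 0.454 in units of the section's median and 0.561 in units of its CTXsp median. The SUS to CON ratio was 0.699 with means, 0.704 with equal weight for each distance from the edge and 0.984 in units of the CTXsp median. Genes in spots with 5000 to 10000 UMIs gave 0.833 in RES and 0.899 in SUS. The mitochondrial difference in RES was 1.35 points with means, 0.396 with equal weight per distance, 0.0767 relative to the section's median, 1.66 summed over spots with the recovered total and -6.33 in spots with 5000 to 10000 UMIs. In SUS these were 0.554, 0.168, -0.319, -1.01 and -7.70. The ribosomal protein difference was -0.397 in RES in spots with 5000 to 10000 UMIs and -0.553 in SUS when summed over spots. The red blood cell difference in RES was 0.252 with means, 0.0730 with 5000 to 10000 UMIs, 0.0351 relative to the section and 0.241 when summed, and in SUS 0.874, 0.323, -0.0177 and 0.633.

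The mean OLF to CTXsp ratio of UMIs, close to 1, became 1.09 with means, 1.09 without spots at the tissue edge and 1.02 in spots with neighbours of 1 label, and 0.900 to 1.20 when each section was left out (1.20 without RES). For genes these were 1.01, 1.04, 1.002 and 0.936 to 1.11 (1.11 without RES). The mitochondrial difference from CTXsp, 0.370 as reported, was 3.94 with means, -0.251 with equal weight per distance, which leaves only spots over 4 steps deep, and -0.104 near the border. The direction of outer against inner OLF spots held under its 40 alternatives, OLF genes at equal UMIs ranged from 0.963 to 0.985 times CON in RES and from 0.986 to 1.0035 in SUS, and the step 3 ratios stayed within their intervals under 13 of 14 alternatives. The exception was SUS on the HY side alone, at 0.593. The step 3 alternatives were chosen after seeing the data, as were those that use the recovered total for UMIs, known distances only or the grid end as an edge. The 2500-UMI bins had 10 spots in every section in 1 bin only. Red blood cell values in CON rest on a median of 2 recovered UMIs per spot and are coarse for that reason. The median recovered total of OLF spots was largest in CON, at 17481 against 6478 in RES and 10164.5 in SUS.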
